A study of Mus musculus with 2 samples.

Results

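Neutrophil granule genes are described here as 10 named genes that encode the stored antimicrobial proteins, proteases and abundant cytosolic proteins of the neutrophil. They were chosen by name, with earlier results of these data known. Every probe set whose single gene symbol in the platform annotation was Mpo, Elane, Prtn3, Camp, Ngp, Ltf, Lcn2, S100a8, S100a9 or Lyz2 was taken. Each of the 10 genes was read by 1 probe set, out of 34945 probe sets with 1 gene symbol and 45101 probe sets in all. All 10 lay above the floor on dim signals that is used throughout (a mean log2 signal of 5.52, the 40th percentile of all probe sets), where 14093 genes were read.

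The tissue was diaphragm skeletal muscle of C57/BL6 mouse embryos at E18.5, close to birth. One sample carried the genotype RP58-/- and the other RP58+/+, and no other allele or agent was named for either. RP58, now named Zbtb18, is a zinc finger protein that represses transcription. The comparison asks how the tissue's transcripts differ without RP58. There was 1 array per genotype, and the number of embryos behind each sample was not stated, so no spread between embryos, no test and no p-value could be had, and each value that follows is a description of these 2 arrays.

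Neutrophils fill their granules in a fixed order as they mature. Mpo, Elane and Prtn3 are made in early precursors (promyelocytes) and stored in primary granules, whereas Ltf, Camp, Lcn2 and Ngp are made in the next stage (myelocytes) and stored in secondary granules. PU.1 and factors of the C/EBP family switch these genes on. In late mouse embryos granulocytes are produced in the liver and, increasingly, in the bone marrow, and skeletal muscle is not a site of their production.

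All 10 genes had a higher signal on the RP58-/- array than on the RP58+/+ array, by 0.08 to 0.97 on the log2 scale (1.05-fold to 1.96-fold), with a median of 0.46. Camp, Ngp and Lyz2 reached 1.5-fold, the size counted as higher or lower here (0.58 on the log2 scale), so 3 of 10 genes were higher and 0 were lower. Over all 14093 genes, 3.83% were higher by that size, 6.51% were lower, 49.4% were above 0 and the median was -0.003. These shares give a scale only and do not test the set, which was chosen with earlier results known. The differences of the other 7 genes lay under 1.5-fold, and 0 of the 10 reached 2-fold, against 0.908% of all genes. For scale, the pooled SD of the difference among probe sets of 1 gene was 0.28, taken over the 5675 genes with several probe sets above the floor. That SD covers probe sets and isoforms, not embryos, dissection or hybridisation.

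The upstream sequences of 5 of the genes are shown first, because they set the secondary granule genes with the largest and the smallest differences (Camp and Ngp, and Ltf) beside the adjacent pair of primary granule proteases (Elane, Prtn3). Each is the run of 250 bases before the RefSeq start site, 5′ to 3′ on the gene's strand, in assembly GRCm38.p6, and all 10 genes had such an entry by symbol. Camp lies at chr9:109849457-109849706, minus strand. Ngp lies at chr9:110419558-110419807, plus strand. Ltf lies at chr9:111019042-111019291, plus strand. Elane lies at chr10:79886062-79886311, plus strand. Prtn3 lies at chr10:79879417-79879666, plus strand. Capitals mark matches to a C/EBP form (TTNNGNAA) or to the core of the PU.1 motif (GAGGAA), on either strand.
Camp: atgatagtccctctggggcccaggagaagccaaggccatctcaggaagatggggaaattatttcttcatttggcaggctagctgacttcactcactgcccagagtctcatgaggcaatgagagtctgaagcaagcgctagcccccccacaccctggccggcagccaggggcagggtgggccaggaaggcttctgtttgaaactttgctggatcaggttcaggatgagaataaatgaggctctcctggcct
Ngp: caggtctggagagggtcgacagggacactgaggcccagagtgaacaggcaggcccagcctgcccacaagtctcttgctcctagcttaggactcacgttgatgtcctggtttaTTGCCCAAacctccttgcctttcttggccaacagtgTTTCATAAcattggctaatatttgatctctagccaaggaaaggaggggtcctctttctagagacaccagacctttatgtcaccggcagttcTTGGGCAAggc
Ltf: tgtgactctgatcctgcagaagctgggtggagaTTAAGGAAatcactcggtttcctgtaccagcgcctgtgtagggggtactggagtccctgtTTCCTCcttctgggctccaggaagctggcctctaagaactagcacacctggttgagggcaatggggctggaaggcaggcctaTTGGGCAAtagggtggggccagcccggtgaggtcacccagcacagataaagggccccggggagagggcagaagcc
Elane: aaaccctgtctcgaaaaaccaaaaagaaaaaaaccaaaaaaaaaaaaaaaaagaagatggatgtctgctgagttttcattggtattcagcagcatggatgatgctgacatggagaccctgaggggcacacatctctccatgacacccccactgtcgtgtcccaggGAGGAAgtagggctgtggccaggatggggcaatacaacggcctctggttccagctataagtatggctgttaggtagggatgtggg
Prtn3: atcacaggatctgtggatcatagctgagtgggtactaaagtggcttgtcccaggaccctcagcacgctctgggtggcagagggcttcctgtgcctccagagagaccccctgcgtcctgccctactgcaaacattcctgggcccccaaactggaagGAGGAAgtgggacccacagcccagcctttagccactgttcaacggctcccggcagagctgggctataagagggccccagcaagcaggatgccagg

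The windows of primary granule genes held PU.1 cores alone. All of Mpo, Elane and Prtn3 held the PU.1 core and none held the C/EBP form, with the match at -85 to -80 from the start site in Elane, at -95 to -90 in Prtn3, and a pair of matches between -247 and -219 in Mpo. Among secondary granule genes Ngp held 3 C/EBP matches, Ltf 2 and Lcn2 1, and Ltf and Lcn2 each held 1 PU.1 core. S100a8 held 1 C/EBP form and 2 PU.1 cores, S100a9 held 2 C/EBP forms, Lyz2 held 1, and Camp held neither. A C/EBP form was found upstream of 6 of the 10 genes and of 36.8% of all 32851 RefSeq promoters of the same length. The PU.1 core was found upstream of 6 of the 10 and of 23.3% of all. TT followed directly by GAGGAA would fit both forms, and no match upstream of these 10 genes did. The core of the RP58 motif, ACATCTG, which contains an E-box form (CANNTG), was found in 0 of the 10 windows and in 3.7% of all, on either strand. Such matches say only that the letters are in these windows.

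**Figure D1:**
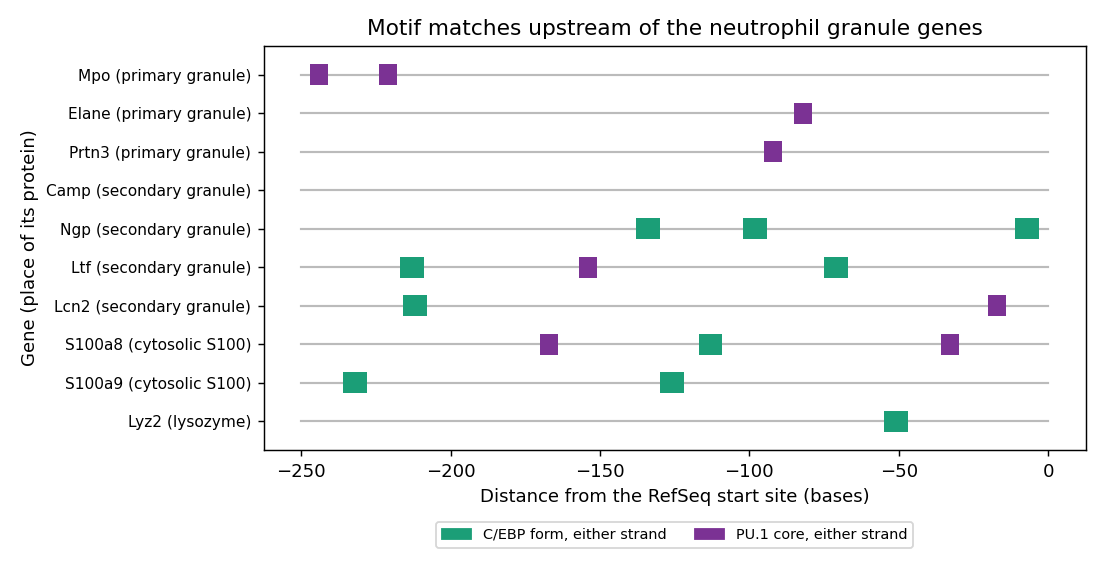
Motif matches upstream of the 10 neutrophil granule genes, with distance from the RefSeq start site in bases on the x axis and 1 line for each gene. Green blocks are C/EBP forms and purple blocks PU.1 cores, on either strand. The 3 primary granule genes at the top hold purple blocks alone, and Camp holds no block.

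The largest differences were those of 2 secondary granule genes, Camp and Ngp. Camp encodes the mouse cathelicidin, whose released peptide kills bacteria, and its log2 signal was 11.92 on the RP58-/- array and 10.95 on the RP58+/+ array, a difference of 0.97 (1.96-fold). Only 139 of the 14093 genes had a larger positive difference than Camp. Ngp encodes a granule protein related to the cathelicidins, and its log2 signal was 12.41 on the RP58-/- array and 11.70 on the RP58+/+ array, a difference of 0.71 (1.64-fold). These differences of Camp and Ngp were 3.49 and 2.56 times the probe set SD.

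Lactoferrin and lipocalin 2, which both withhold iron from microbes, differed less. Ltf (lactoferrin) had a log2 signal of 10.54 on the RP58-/- array and 10.08 on the RP58+/+ array, a difference of 0.46 (1.38-fold). Lcn2 (lipocalin 2), which binds bacterial siderophores and is also made by epithelia and the liver in inflammation, had 11.15 on the RP58-/- array and 10.63 on the RP58+/+ array, a difference of 0.52 (1.44-fold). The 4 secondary granule genes had a median difference of 0.62, and 2 of them were higher by 1.5-fold or more.

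The 3 primary granule genes of the set had smaller differences, and none reached 1.5-fold. Mpo encodes myeloperoxidase, which makes hypochlorous acid, and its log2 signal was 10.53 on the RP58-/- array and 10.11 on the RP58+/+ array, a difference of 0.41 (1.33-fold). Elane encodes neutrophil elastase, and its log2 signal was 7.32 on the RP58-/- array and 6.96 on the RP58+/+ array, a difference of 0.36 (1.29-fold). Prtn3 encodes proteinase 3, a serine protease close to elastase, and its log2 signal was 9.61 on the RP58-/- array and 9.54 on the RP58+/+ array, a difference of 0.08 (1.05-fold). The differences of Mpo and Elane exceeded the probe set SD, and that of Prtn3 was 0.28 times that SD. The median of the 3 genes was 0.36. With 1 array per genotype the gap between primary and secondary granule genes could not be tested, and the lowest secondary value (Ltf, 0.46) lay close to the highest primary value (Mpo, 0.41). Ctsg, the gene of a primary granule protease outside the set, differed by 0.56, more than Ltf and Lcn2 (0.52).

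The cytosolic pair and lysozyme completed the set. S100a8 and S100a9 encode the subunits of calprotectin, a calcium- and zinc-binding dimer that is the most abundant cytosolic protein of neutrophils. S100a8 had a log2 signal of 13.47 on the RP58-/- array and 13.15 on the RP58+/+ array, a difference of 0.32 (1.25-fold). S100a9 had 13.21 on the RP58-/- array and 12.75 on the RP58+/+ array, a difference of 0.46 (1.37-fold). Both lay near the top of the scale, whose highest signals were 14.36 on the RP58-/- array and 14.39 on the RP58+/+ array.

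Lyz2 encodes the lysozyme of macrophages and neutrophils, which cuts bacterial cell walls. Its log2 signal was 11.90 on the RP58-/- array and 11.30 on the RP58+/+ array, a difference of 0.60 (1.52-fold), which lay just past the size rule and dropped under it when the differences were centred on the median probe set (0.58). The near-identical neighbouring gene Lyz1 could share its RNA signal. Lyz1 was read by 3 probe sets, of which those of the cross-hybridising kind differed by 0.51 and 0.67 and the third, with log2 signals of 5.64 on the RP58-/- array and 5.66 on the RP58+/+ array, by -0.02. How much of the Lyz2 signal comes from Lyz1 cannot be told apart here.

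**Figure D2:**
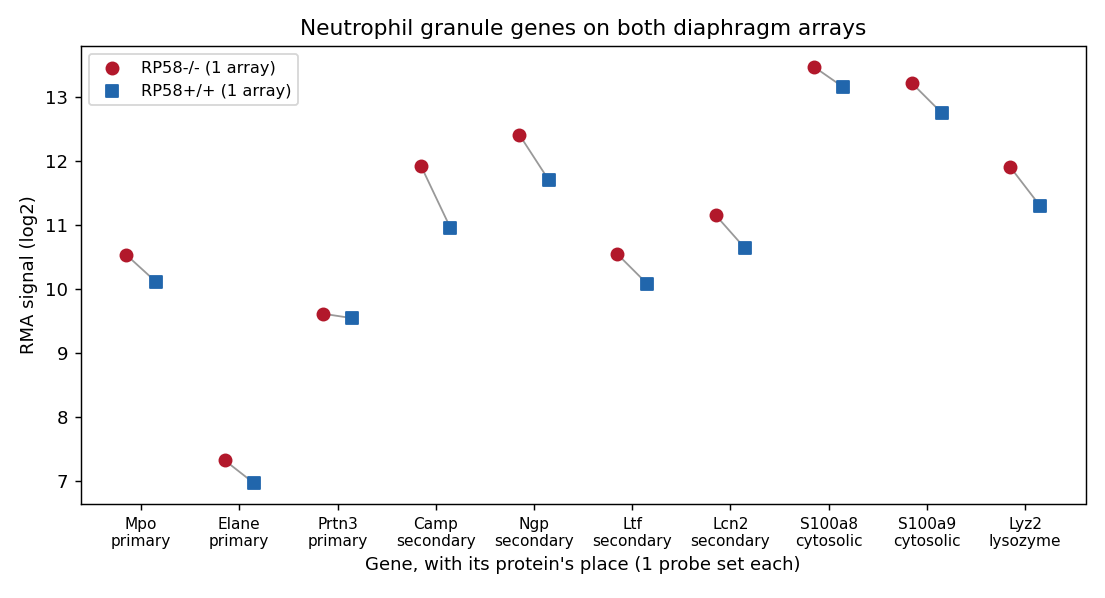
RMA signal (log2) of the 10 neutrophil granule genes, with the RP58-/- array as red circles and the RP58+/+ array as blue squares, 1 probe set for each gene and no error bars because each genotype had 1 array. Every red circle lies above its blue square, by 0.97 in Camp and by 0.08 in Prtn3.

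**Figure D3:**
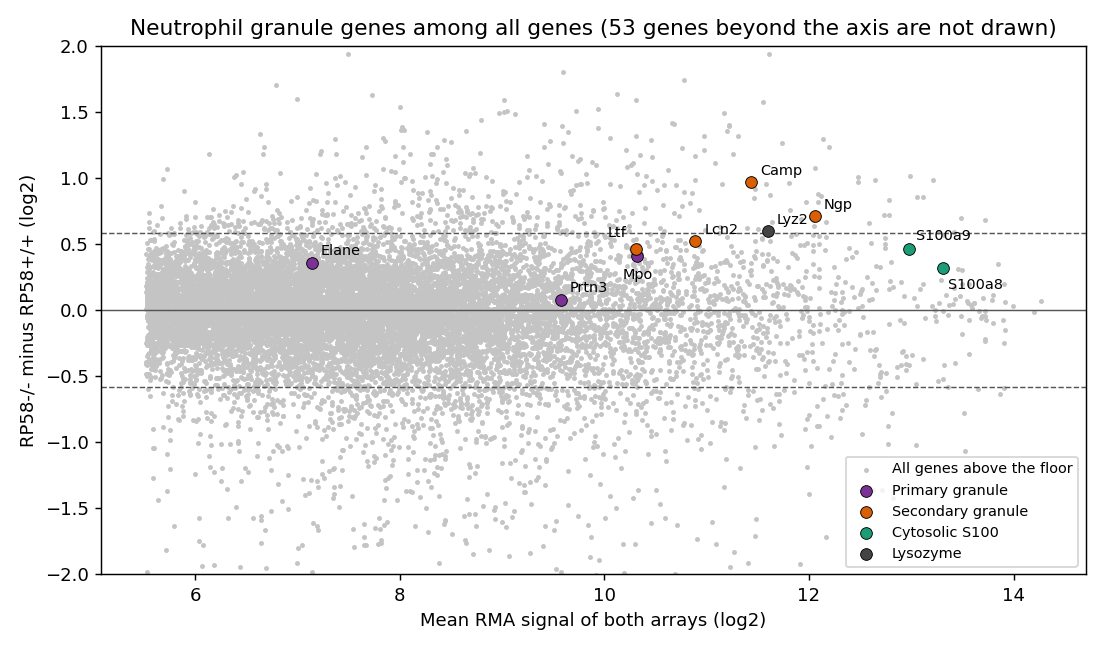
Difference RP58-/- minus RP58+/+ (log2) against the mean signal of both arrays for 14093 genes (grey), with the 10 neutrophil granule genes coloured by the place of their proteins and dashed lines at 1.5-fold. Camp, Ngp and Lyz2 lie above the upper line, and the 53 genes that differed by more than the axis shows are not drawn.

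Several of the genes are neighbours in the mouse genome. Elane and Prtn3 lie side by side on chromosome 10, with 0 coding genes starting between them, and their differences were 0.36 and 0.08. S100a8 and S100a9 are likewise adjacent on chromosome 3, with differences of 0.32 and 0.46. Camp, Ngp and Ltf lie in that order on chromosome 9. Of 8 coding genes that start between Camp and Ngp, all 8 were read above the floor, 0 passed 1.5-fold in either direction and their median difference was -0.07. Of 20 between Ngp and Ltf, 14 were read, 0 were higher, and Myl3 (-1.87) and Lrrc2 (-0.68) were lower, with a median of -0.04. Myl3 encodes a slow muscle and ventricular myosin light chain.

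Other granule genes of neutrophils mostly differed in the same direction by less than 1.5-fold. Of 21 further granule and oxidase genes, 17 were read above the floor, 16 were above 0, and the median was 0.34. The gene not above 0 was Olfm4, with 10.91 on the RP58-/- array and 10.92 on the RP58+/+ array, a difference of -0.01. By the 1.5-fold rule 1 was higher and none was lower. The 1 gene was Hp (haptoglobin, the haemoglobin-binding plasma protein), with 12.37 on the RP58-/- array and 11.11 on the RP58+/+ array, a difference of 1.26. Haptoglobin is made mainly by the liver, and 12 of 17 hepatocyte genes were higher on the same array. Ctsg (cathepsin G, a primary granule protease) differed by 0.56 and Mmp8 (neutrophil collagenase) by 0.53. Lyz1 is counted above 0 through a probe set of the cross-hybridising kind (0.51), and another of that kind differed by 0.67. Both could share signal with Lyz2, so Lyz1 is not a reading separate from the 10 genes. The remaining Lyz1 probe set, which was dim, differed by -0.02. Itgam, the integrin chain CD11b, had signals of 5.76 on the RP58-/- array and 5.11 on the RP58+/+ array, and its mean lay under the floor.

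Surface receptors and markers of neutrophils mostly differed in the same direction as the granule genes, with 1 gene past 1.5-fold each way. Of 22 such genes 16 had a probe set with 1 symbol and 14 lay above the floor, of which 12 were above 0, 1 was higher and 1 was lower, with a median of 0.28. Fcnb, a ficolin of developing myeloid cells, had 7.52 on the RP58-/- array and 6.71 on the RP58+/+ array, a difference of 0.81. Padi4, the histone-citrullinating enzyme of neutrophil extracellular traps, had 5.07 on the RP58-/- array, under the floor, and 6.12 on the RP58+/+ array, a difference of -1.05, opposite to the granule genes. Stfa3 (a stefin protease inhibitor) differed by 0.58, just under the size rule, and Il1b by 0.51. The receptors for the growth factor G-CSF (Csf3r) and for neutrophil chemokines (Cxcr2) differed by 0.32 and 0.25.

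The regulators of granulocyte production that were read, apart from Cebpa, lay within 1.5-fold. Of 14 transcription factor, cytokine and receptor genes above the floor, 12 were above 0, 1 was higher and 0 were lower, with a median of 0.15. Cebpa, the C/EBP factor that commits precursors to the granulocyte line and is also abundant in liver and fat, had 8.97 on the RP58-/- array and 8.21 on the RP58+/+ array, a difference of 0.76. Myb, a factor of immature precursors, was at 0.34 where read most brightly and at -0.21 on another probe set, and Csf2ra by 0.22. Spi1, which encodes PU.1, differed by 0.15 and Cebpd by -0.11. Gfi1, a repressor needed for neutrophil maturation, lay under the floor. Cebpe, which encodes another C/EBP factor, had no probe set with 1 symbol and was not read.

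On their brightest probe sets, genes for receptors and inhibitors of the granule proteins were above 0 in all 10 of 10 cases read. Their median was 0.49, and 3 were higher by the size rule. Ager, the receptor RAGE that binds S100a8 and S100a9, had 7.29 on the RP58-/- array and 6.06 on the RP58+/+ array, a difference of 1.24. It is also a marker of alveolar type I cells of the lung, and is counted again among the lung epithelium genes. Serpina3n, a serine protease inhibitor made in liver, differed by 1.24 and Bsg (basigin, an S100a9 receptor) by 0.88. Slpi, an inhibitor of neutrophil elastase secreted by epithelia, had 11.73 on the RP58-/- array and 11.21 on the RP58+/+ array, a difference of 0.53. Tlr4, another receptor of the S100 pair, lay under the floor, and Serpinb1a, an intracellular inhibitor of elastase and proteinase 3, differed by 0.13.

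Other blood cell lineages were read beside the granule genes. The median of pan-leukocyte genes was 0.40, and 2 of 12 were higher (Coro1a at 0.78 and Cd52 at 0.63) and 0 lower, and Ptprc, which encodes CD45, differed by 0.10. Their summed linear signal was 7099 on the RP58-/- array and 5416 on the RP58+/+ array. The monocyte and macrophage median was 0.25, and 2 of 19 genes were higher and 1 lower, all 19 above the floor, and a summed signal of 12976 on the RP58-/- array and 11561 on the RP58+/+ array. The higher ones were Cd5l (0.90) and Timd4 (0.68), both of resident macrophages such as those of the liver, and the lower one was Cd163 (-0.76), a scavenger receptor, while C1qc was at 0.58.

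Erythroid genes, which mark the other large product of embryonic blood formation, had a median of 0.04, Car1 alone of 15 was higher (0.79) and 0 were lower, with a summed signal of 15286 on the RP58-/- array and 14668 on the RP58+/+ array. The 10 granule genes summed to 40119 on the RP58-/- array and 28452 on the RP58+/+ array. Genes of blood progenitors had a median of 0.04 with Angpt1 lower (-0.63) among 11, megakaryocyte and platelet genes 0.13 with 0 of 8 past the rule, lymphocyte genes 0.01 with Ms4a1 higher (0.63) among 9, and mast cell, basophil and eosinophil genes 0.23 with 0 of 9 past the rule. Prg2, the eosinophil granule major basic protein, led the last list at 0.53, and Epx, the eosinophil peroxidase, lay under the floor. None of these differences between lists was tested.

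Markers of tissues that adjoin the diaphragm had medians above 0, with some members past 1.5-fold and others near 0. The median of hepatocyte genes was 0.96, and 12 of 17 were higher and 0 lower, all 17 above the floor, and a summed signal of 161739 on the RP58-/- array and 104868 on the RP58+/+ array. Bhmt, which remethylates homocysteine, and Hamp, the iron hormone hepcidin, each differed by 1.94. For lung epithelium the median was 0.56 and 4 of 8 genes were higher, led by the surfactant gene Sftpc (3.64), with Sftpb at 0.12, a summed signal of 3765 on the RP58-/- array and 916 on the RP58+/+ array, and Nkx2-1, Scgb1a1 and Sftpa1 under the floor. For mesothelium the median was 0.60 and 4 of 8 genes were higher, led by Krt19 (1.12), with Krt8 at 0.08 and Wt1 at -0.12, and a summed signal of 12915 on the RP58-/- array and 8385 on the RP58+/+ array. Their part in the differences of the granule genes was not tested.

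Genes of the muscle fibre, the labelled tissue, were high on both arrays and lower on the RP58-/- array. By the 1.5-fold rule 13 of 14 were lower and none was higher, their median was -1.23, and Acta1, skeletal actin, had a log2 signal of 13.36 on the RP58-/- array and 13.95 on the RP58+/+ array. Their summed signal was 59357 on the RP58-/- array and 118694 on the RP58+/+ array. RMA sets both arrays to nearly the same distribution of signals, so each difference is relative to the rest of the RNA, and in such bulk tissue more cells of a type and more RNA per cell cannot be told apart. Zbtb18 itself had 9.21 on the RP58-/- array and 8.91 on the RP58+/+ array (0.30 higher), and whether its probe set reads the deleted stretch of the gene was not stated, so it did not check the labels. The samples also differed in the X-inactivation transcript Xist, with 6.96 on the RP58-/- array and 11.47 on the RP58+/+ array, so sex and genotype cannot be told apart.

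**Figure D4:**
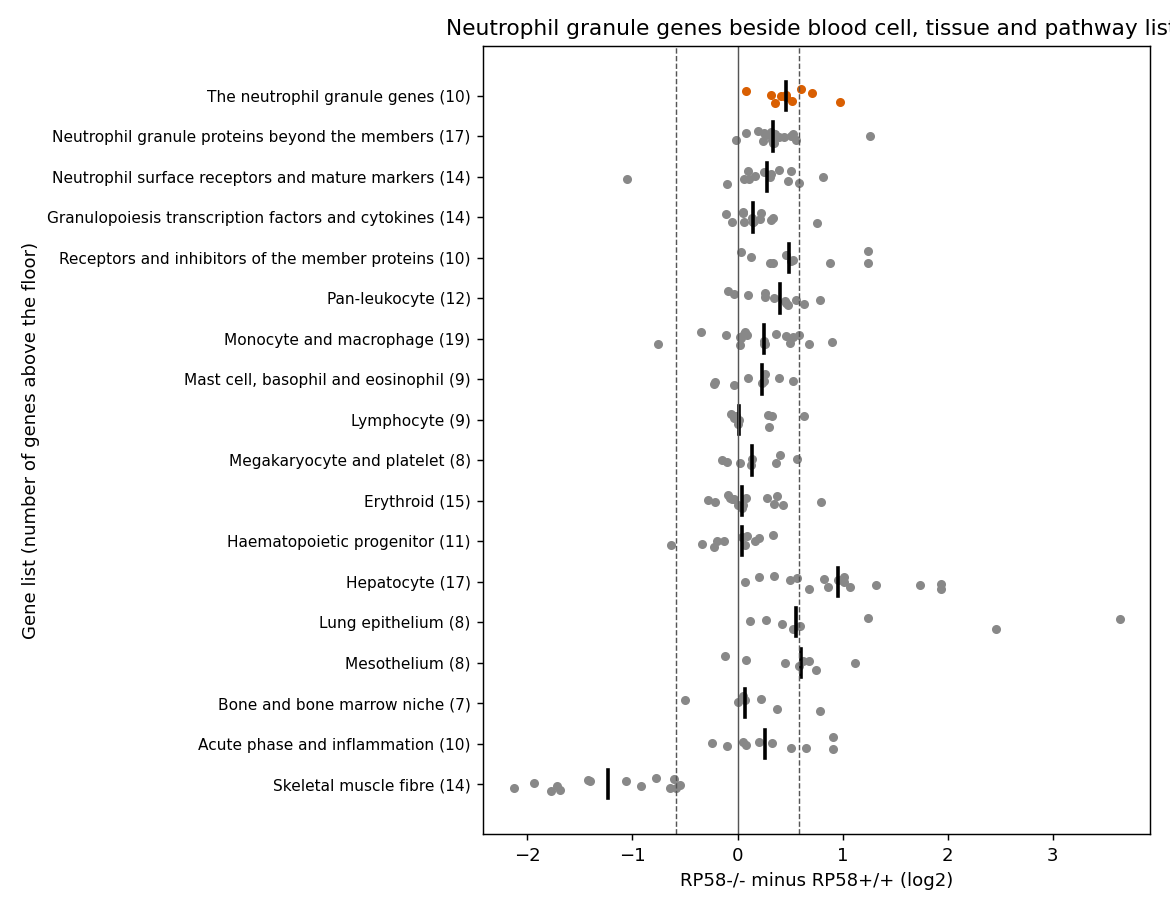
Difference RP58-/- minus RP58+/+ (log2) of every gene above the floor in the neutrophil granule set (orange) and in 17 other lists (grey), with the number of genes in brackets, black bars at each median and dashed lines at 1.5-fold. The neutrophil granule genes have a median of 0.46, hepatocyte genes 0.96, erythroid genes 0.04 and muscle fibre genes -1.23.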

How the data were processed

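The authors deposited 1 table of log2 signals per probe set, computed by RMA (background correction, quantile normalisation and probe set summary) per the series' design text, with Affymetrix Expression Console 1.1 named in the submitters' processing notes. The probe sets matched the annotation of a larger Affymetrix mouse design than the design text names. Of 45101 probe sets, 34945 carried 1 gene symbol, 932 several and 9160 none, and 64 were controls. RMA gives no detection call, and the number of arrays limits the precision.

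From these values the difference RP58-/- minus RP58+/+ was taken per probe set. Probe sets under the 40th percentile of mean signal were left out, a gene with several probe sets was represented by the brightest, and 1.5-fold was the size counted. No test was run with 1 array per genotype. Summed signals are sums of linear values, that is, 2 to the power of each log2 signal. The genes, and the lists they are set beside, were chosen with earlier results of these data known. Of 268 list entries, 243 had a probe set with 1 symbol. Some genes, such as Ager, Csf3r and Myb, stand in several lists, so the lists are not independent of each other. Named were all 10 granule genes, Zbtb18, and up to 4 genes of each other list with the largest absolute difference, plus genes under the floor or not read. Cxcr2, Spi1, Cebpd, Ptprc, Serpinb1a, Sftpb, Krt8, Wt1, Acta1, Cxcl12, Olfm4, Myl3 and Lrrc2 were named after their values were seen. The calculations used Python 3.11.15 and pandas 2.3.3 and were tested on simulated data. Promoter sequences are from RefSeq, assembly GRCm38.p6.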

Additional observations from a re-analysis of the deposited data

How the results depend on the processing

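All 10 genes stayed above 0 under every alternative that could read them. These included averaging a gene's probe sets, taking its dimmest, no floor and a higher floor (60th percentile). They also included centring by the median or a loess curve (fraction 0.3) and scaling to the poly-A spike-ins. The last dropped probe sets with the suffix _s_at, _x_at or _a_at, which removed S100a8 and Lcn2. Apart from poly-A scaling, all 68 single-gene values lay within 1 probe set SD of those reported. Most of this was fixed by construction, since each of the 10 genes had 1 probe set, above every floor used. Averaging, the dimmest probe set, the floor changes and the suffix filter could not change a gene's value, and only centring could. Centring on the median left 2 of 10 genes past 1.5-fold. The 24 poly-A spike-in probe sets had a median difference of -0.75, and scaling to them raised the median of all genes to 0.74, put all 10 genes and 70.9% of all genes past 1.5-fold and moved the median of the 10 genes to 1.21, so that the gap to all genes stayed the same by construction. At a 2-fold rule, 0 of 10 genes and 0.908% of all genes were higher. At 1.72-fold, the 95th percentile of disagreement between probe sets of a gene, 1 of 10 was, with 1.78% of all genes. Leaving out each gene in turn kept the median at 0.46. It could not do otherwise, because the middle values (S100a9 and Ltf) both round to 0.46. No paired analysis was possible because each genotype had 1 array.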

Other observations

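Among acute phase and inflammation genes, 10 of 20 lay above the floor, of which 8 were above 0, 3 were higher by 1.5-fold and 0 were lower, with a median of 0.27. The higher ones were the liver plasma protein gene Crp (10.97 on the RP58-/- array and 10.06 on the RP58+/+ array), the serum amyloid gene Saa3 (10.15 on the RP58-/- array and 9.24 on the RP58+/+ array) and the lipopolysaccharide-binding protein gene Lbp, at 0.65 on its brightest probe set and 0.07 on another. Il6, Il1a, Cxcl2, Cxcl5, Ccl3 and the endothelial selectin gene Sele lay under the floor. In the list of bone and marrow niche genes, 7 of 12 were read, with a median of 0.07. There the osteoclast genes Acp5 (0.78) and Ctsk (-0.50) differed in opposite directions, and Cxcl12, the chemokine that holds neutrophils in the marrow, was at 0.05.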
